A study of Mus musculus with 6 samples.

Results

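The p53 target genes described here are Cdkn1a, Mdm2, Trp53inp1, Ccng1, Bax, Bbc3, Pmaip1, Sesn2, Gdf15 and Phlda3, 10 well-known direct targets of the transcription factor p53. They were chosen by name, with earlier results of these data known, and found by Ensembl identifier. All 10 were among the 22556 genes measured in each of 6 pancreas samples. RNA was sequenced from the pancreas of wild type C57BL/6 mice at postnatal week 8. Of these samples, 2 came from saline mice, 2 from mice with acute pancreatitis (AP) and 2 from AP mice pretreated with polyI:C. AP was brought on by repeated injection of cerulein, a cholecystokinin analog that overstimulates the acinar cells, and the pancreas was taken the day after injections began. PolyI:C is a synthetic double-stranded RNA recognised by the receptor TLR3, and in the pretreated group it was injected before cerulein. No polyI:C group without cerulein was among the sequenced samples. The labels do not say whether each sample came from a separate mouse or from a pool, so p-values measure the spread between these samples, which may be partly technical.

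p53, encoded by Trp53, is a transcription factor that cells keep scarce by having the ubiquitin ligase Mdm2 mark it for destruction. DNA damage and other stresses slow that destruction, and p53 then binds DNA elements near its target genes and raises their transcription. The targets arrest the cell cycle, bring on apoptosis, adjust metabolism and feed back on p53 itself, and in the pancreas p53 is best known as a tumor suppressor that limits acinar-derived and ductal neoplasia. Several of them, Sesn2 and Gdf15 among them, also respond to the integrated stress response through ATF4 and CHOP, so a change in one target alone is not specific to p53.

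Levels are given in TPM, transcript abundance per unit length relative to all transcripts of a sample, and folds as the log2 fold change of TPM + 0.5 with its standard error (SE). Tests were made with limma over 16814 genes averaging 1 TPM or more across the samples, all 10 p53 target genes included, and a change was called at an adjusted p of at most 0.05 and at least 2-fold. Sequencing depth, estimated from the steps between low TPM values, ran from 3296935 to 3974144 reads in the saline samples and from 6932614 to 10852537 in the others. Of the acinar genes still in the tables, Amy2a5 was at 213 to 290.1 TPM in saline and at 16.9 to 22.1 TPM in AP samples. In bulk tissue, fewer cells of a type and less RNA per cell cannot be told apart. A few genes, 15 in number, each held over 1% of a library and together took 27.6% to 30.4% of the TPM in saline samples but 15.4% to 19.0% in the others. On the TPM scale the median gene stood 0.45 higher (log2) in AP than in saline samples and 0.48 higher in polyI:C-pretreated AP than in saline samples. Scaling by the median of ratios brought those medians to 0.05 and 0.05.

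The promoters of the p53 target genes are shown because p53 binds DNA at a response element built from a pair of 10-base units (decamers) with a short or no gap between them, and the targets with such a unit just upstream of the transcript start can be found by sequence. A single decamer is a part of a response element, not a whole one. RefSeq promoters on GRCm38.p6 were to be had for 8 of the 10 genes, those of Trp53inp1 and Pmaip1 being the exceptions. Within the 250 bases before the start, the p53 decamer consensus, which reads the same on both strands, was found in 4 of these 8 genes (50.0%) against 8.20% of the 27025 genes in the table. The windows are chr17:29090729-29090978 (plus strand) for Cdkn1a, chr10:117710759-117711008 (minus) for Mdm2, chr11:40755287-40755536 (minus) for Ccng1 and chr7:45466899-45467148 (minus) for Bax. Each is printed 5′ to 3′ up to the base before the start, with each decamer in capitals.
Cdkn1a: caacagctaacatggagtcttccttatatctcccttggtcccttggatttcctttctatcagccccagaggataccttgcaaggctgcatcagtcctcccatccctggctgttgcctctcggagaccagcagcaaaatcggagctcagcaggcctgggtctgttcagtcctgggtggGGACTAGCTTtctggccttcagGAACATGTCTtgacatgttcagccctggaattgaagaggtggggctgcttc
Mdm2: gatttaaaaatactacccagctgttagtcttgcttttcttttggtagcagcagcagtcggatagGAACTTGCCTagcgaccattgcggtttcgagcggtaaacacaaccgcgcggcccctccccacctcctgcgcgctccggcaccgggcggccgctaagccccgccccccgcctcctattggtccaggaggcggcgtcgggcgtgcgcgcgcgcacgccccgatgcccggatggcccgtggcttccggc
Ccng1: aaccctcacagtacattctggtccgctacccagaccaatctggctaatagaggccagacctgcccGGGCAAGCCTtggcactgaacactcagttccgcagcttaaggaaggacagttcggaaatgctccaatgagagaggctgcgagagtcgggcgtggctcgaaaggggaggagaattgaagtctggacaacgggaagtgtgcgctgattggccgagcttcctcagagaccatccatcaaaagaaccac
Bax: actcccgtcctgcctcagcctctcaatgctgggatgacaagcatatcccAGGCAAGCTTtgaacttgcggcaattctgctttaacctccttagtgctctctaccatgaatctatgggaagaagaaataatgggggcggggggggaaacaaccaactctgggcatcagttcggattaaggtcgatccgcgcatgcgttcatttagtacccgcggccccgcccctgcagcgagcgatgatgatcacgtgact
Cdkn1a was the gene with 2 copies, 73 to 64 and 51 to 42 bases before its upstream start and 12 bases apart. The copy nearer the start is followed, with no gap, by tgacatgttc, which misses the consensus by its opening letter alone and is not in capitals. The 2 copies in capitals are therefore not to be read as the pair of a response element, and which stretches p53 binds was not tested. A further Cdkn1a start lies 2790 bases downstream. The single copies stood 186 to 177 bases before the start of Mdm2, 185 to 176 before that of Ccng1 and 201 to 192 before that of Bax. The log2 fold change from saline to AP was 1.44 to 3.09 in the 4 genes with it and 2.03 to 4.95 in the 4 with an entry but no decamer in this window. A match describes these letters only, and p53 elements further away or inside introns lie outside the window.

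All 10 p53 target genes rose in AP. Both AP samples lay above both saline samples for each gene, and all 10 passed the test, against 18.2% of all tested genes called higher and 4.03% called lower. As the 10 genes were chosen with earlier results of these data known, this count is no independent test of them as a set. Over all tested genes, 52.6% had both AP samples above both saline samples. All 10 also had an unadjusted p under 0.05, as had 48.9% of tested genes. Their log2 fold changes had a median of 2.34, beside 0.45 over all tested genes. After median-of-ratios scaling it was 1.93, beside 0.05, and all 10 were still called higher. The calls over all genes were 3053 higher and 677 lower on the TPM scale and 1565 higher and 1225 lower after that scaling.

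**Figure D1:**
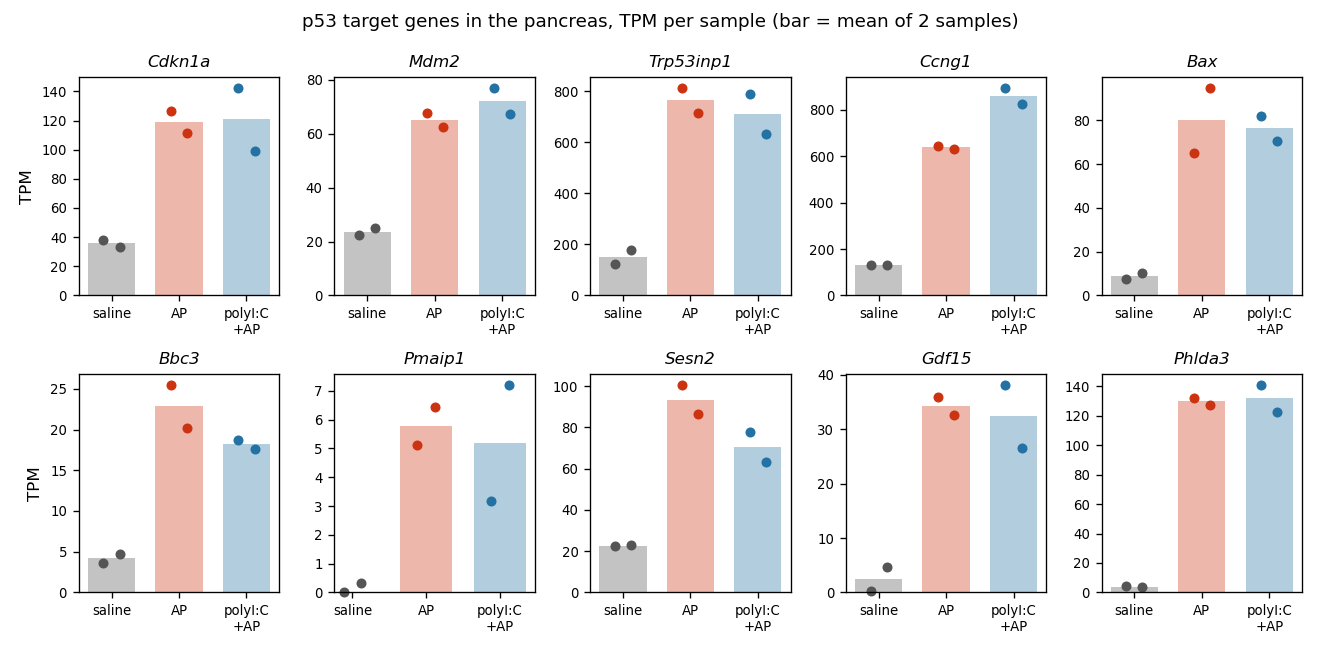
TPM (vertical axis, linear, from 0) of the 10 p53 target genes in the 2 saline, 2 AP and 2 polyI:C+AP samples, 1 panel per gene. Points are samples and bars are means of 2 samples, with no bar where a sample is listed at 0; in every panel the saline points lie below the 4 other points.

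Among the genes that feed back on p53, Mdm2 (ENSMUSG00000020184, chr10:117688875-117710758, minus strand, GRCm38), which encodes the ligase that degrades p53, measured 22.3 and 25.1 TPM in saline samples and 67.6 and 62.6 TPM in AP samples. It showed the smallest change of the 10, a log2 fold change of 1.44 (SE 0.12, adjusted p = 0.00027), and 1.02 after median-of-ratios scaling, just past the 2-fold limit. Ccng1 (ENSMUSG00000020326, chr11:40748552-40755311, minus strand) encodes cyclin G1, which recruits protein phosphatase 2A to Mdm2. Its level was 133 and 129 TPM in saline and 645 and 632 TPM in AP samples, so that samples of 1 group differed by far less than the groups. The log2 fold change was 2.28 (SE 0.09, adjusted p = 2.5e-05). Trp53inp1 (ENSMUSG00000028211, chr4:11156431-11174379, plus strand), whose nuclear protein promotes p53 phosphorylation and also takes part in autophagy, went from 122 and 177 TPM to 815 and 714 TPM. With Ccng1 it had the highest level of the 10 genes in every group, and its log2 fold change was 2.37 (SE 0.20, adjusted p = 0.00027).

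Cdkn1a (ENSMUSG00000023067, chr17:29090976-29100727, plus strand), which encodes the cyclin-dependent kinase inhibitor p21 and has the 2 decamer matches shown above, was at 38.1 and 33.4 TPM in saline samples and 126 and 111 TPM in AP samples. The log2 fold change was 1.72 (SE 0.18, adjusted p = 0.00065). Exons of an antisense gene, AC167363.2, cover 273 bases (7.68%) of the Cdkn1a exons, and the strand setting of the read counting was not given in the sources used here.

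The genes of the apoptotic branch rose from low saline levels. Bax (ENSMUSG00000003873, chr7:45461697-45466898, minus strand), which encodes a pore former of the outer mitochondrial membrane, was at 7.56 and 10.2 TPM in saline and 65.1 and 95.0 TPM in AP samples. On the log2 scale the AP samples differed from each other more for Bax than for any other of the 10 genes, and still lay far above saline, with a log2 fold change of 3.09 (SE 0.23, adjusted p = 0.00019). Bax shares 192 exon bases (12.2% of its exon length) with the predicted gene Gm45808 on the same strand, and reads there could be assigned to either. Bbc3 (ENSMUSG00000002083, chr7:16308393-16318205, plus strand) encodes PUMA, a BH3-only protein that frees Bax from its inhibitors, and measured 3.64 and 4.76 TPM in saline and 25.5 and 20.2 TPM in AP samples. Its log2 fold change was 2.31 (SE 0.23, adjusted p = 0.00053), with saline values worth about 11.3 and 12 reads.

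Pmaip1 (ENSMUSG00000024521, chr18:66458533-66465565, plus strand) encodes NOXA, a further BH3-only protein. It was listed at 0 and at 0.318 TPM in the saline samples, the latter worth about 1.0 read, and at 5.13 and 6.43 TPM in AP samples, worth about 29.9 and 47.5 reads. Pmaip1 was thus near or below detection in saline, and its log2 fold change of 3.29 (SE 0.48, adjusted p = 0.0023) moved from 2.56 to 4.84 as the pseudocount went from 1 to 0.1 TPM. Without AP replicate 2 its adjusted p was 0.055. Phlda3 (ENSMUSG00000041801, chr1:135766119-135769136, plus strand) encodes a pleckstrin homology domain protein that keeps the survival kinase Akt off the membrane. Phlda3 measured 4.10 and 3.36 TPM in saline, worth about 9.3 and 6.2 reads, and 132 and 128 TPM in AP samples. That was the largest response of the 10, a log2 fold change of 4.95 (SE 0.14, adjusted p = 1.3e-05), which ranked 42 from the top among the 16814 tested genes. With so few saline reads, the size of this fold is less certain than its small SE makes it look.

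Of the genes tied to metabolism and signaling between tissues, Sesn2 (ENSMUSG00000028893, chr4:132492032-132510501, minus strand) encodes sestrin 2, a leucine sensor that restrains the growth kinase complex mTORC1. It went from 22.3 and 22.8 TPM in saline to 101 and 86.3 TPM in AP samples, a log2 fold change of 2.03 (SE 0.14, adjusted p = 0.00015). Gdf15 (ENSMUSG00000038508, chr8:70629393-70632456, minus strand) encodes a secreted stress hormone that reduces appetite through the brain receptor GFRAL. Saline samples disagreed most for this gene, at 0.234 and 4.61 TPM, or about 0.6 and 10.1 reads, while AP samples were at 36.0 and 32.6 TPM. The log2 fold change was 4.17 with the widest error of the 10 (SE 0.80, adjusted p = 0.0065), and it was 2.77 without saline replicate 1 and 5.57 without saline replicate 2. The Gdf15 call was lost without AP replicate 1 (adjusted p = 0.096), without AP replicate 2 (adjusted p = 0.090) and without polyI:C+AP replicate 1 (adjusted p = 0.053).

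After polyI:C pretreatment no difference from AP was called in the 10 p53 target genes. Their log2 differences ran from -0.41 for Sesn2 to 0.43 for Ccng1. Much of the table lay in that range, 85.2% of tested genes being above the Sesn2 value and 17.7% above the Ccng1 value. None of the 10 passed the test between polyI:C-pretreated AP and AP samples (limma, 0 of 10, with 2 of 10 at an unadjusted p under 0.05), where 0.440% of tested genes were called higher, 0.404% lower and 13.9% had an unadjusted p under 0.05. The median log2 fold change of the 10 was -0.07, beside 0.04 over all tested genes. The smallest adjusted p of the 10 was 0.079. AP samples enter this comparison and the one above, so that neither is independent of the other.

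**Figure D2:**
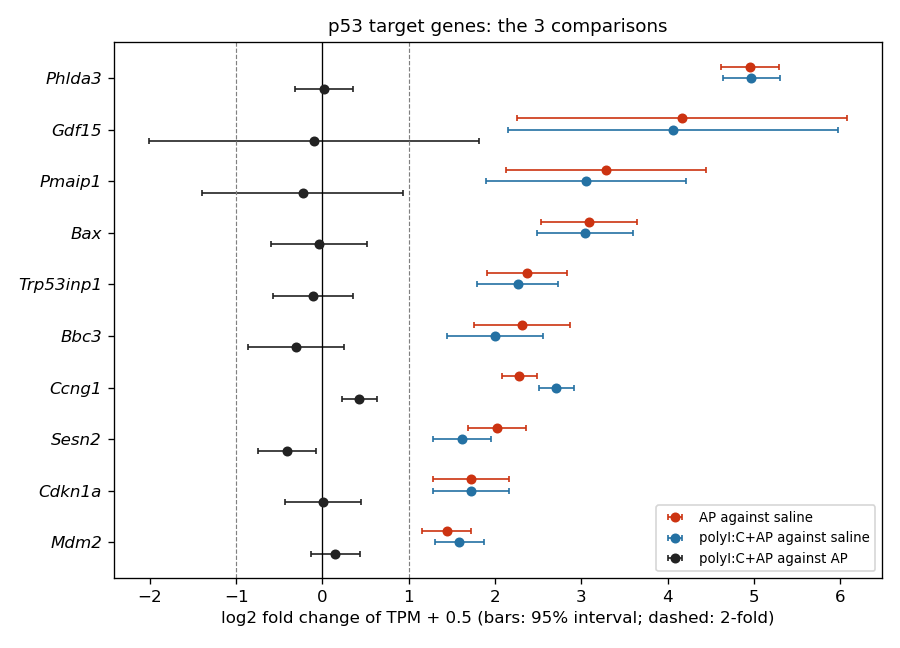
Log2 fold changes of TPM + 0.5 (horizontal axis) of the 10 p53 target genes (rows) in AP against saline (red), polyI:C+AP against saline (blue) and polyI:C+AP against AP (black); points are estimates, bars their 95% intervals and dashed lines mark 2-fold. The 10 points lie between 1.44 and 4.95 in AP against saline, between -0.41 and 0.43 in polyI:C+AP against AP, and between 1.59 and 4.97 in polyI:C+AP against saline.

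For Phlda3, the gene with the largest rise, levels were 141 and 123 TPM in polyI:C-pretreated AP samples, around the 132 and 128 TPM of AP samples. The difference was 0.021 on the log2 scale (95% interval -0.31 to 0.36, adjusted p = 0.97). Cdkn1a was at 143 and 99.0 TPM after polyI:C, with AP samples lying between these values, and its difference was 0.0036 (95% interval -0.43 to 0.44, adjusted p = 1.00). Mdm2 was at 77.1 and 67.3 TPM, again overlapping AP, with a difference of 0.15 (95% interval -0.14 to 0.43, adjusted p = 0.66). For these 3 genes the intervals do not reach a 2-fold change in either direction.

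The intervals of the other genes but Ccng1 and Sesn2 were wider. Trp53inp1 measured 791 and 632 TPM after polyI:C (log2 difference -0.11, 95% interval -0.58 to 0.36, adjusted p = 0.87) and Bax 82.3 and 70.7 TPM (log2 difference -0.04, 95% interval -0.60 to 0.51, adjusted p = 0.96). Both overlapped AP. Bbc3 was at 18.8 and 17.6 TPM, both values below the AP samples, with a log2 difference of -0.31 (95% interval -0.87 to 0.24, adjusted p = 0.63). For Pmaip1, at 3.17 and 7.22 TPM, and Gdf15, at 38.2 and 26.6 TPM, the intervals of the log2 difference ran from -1.39 to 0.93 and from -2.01 to 1.81, so that a 2-fold fall of Pmaip1 and a 2-fold change of Gdf15 in either direction lie within them.

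Ccng1 and Sesn2 came nearest to a call, in opposite directions. Ccng1 was at 896 and 826 TPM after polyI:C, both above the 645 and 632 TPM of AP samples, and its log2 difference was 0.43 (95% interval 0.22 to 0.63, unadjusted p = 0.0019, adjusted p = 0.079). Sesn2 was at 77.8 and 63.0 TPM, both below the 101 and 86.3 TPM of AP samples, with a log2 difference of -0.41 (95% interval -0.75 to -0.07, unadjusted p = 0.024, adjusted p = 0.26). Neither passed the adjusted threshold. Ccng1 was the 1 gene of the 10 with both polyI:C samples above both AP samples, where 27.7% of tested genes showed this. Sesn2 and Bbc3 were the 2 with both samples below, where the share of tested genes was 22.1%.

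Against saline, all 10 p53 target genes were higher in polyI:C-pretreated AP samples too, beside 16.9% of tested genes called higher and 2.97% lower (1326 higher and 985 lower after median-of-ratios scaling, 2838 and 500 without it). Both pretreated samples lay above both saline samples for all 10, as they did for 54.4% of tested genes, and 48.4% of tested genes had an unadjusted p under 0.05. The log2 fold changes, in order, were 4.97 for Phlda3, 4.07 for Gdf15, 3.06 for Pmaip1, 3.05 for Bax, 2.71 for Ccng1, 2.26 for Trp53inp1, 2.00 for Bbc3, 1.72 for Cdkn1a, 1.62 for Sesn2 and 1.59 for Mdm2. The largest adjusted p among them was 0.0076, for Gdf15, whose log2 fold change was 2.67 without saline replicate 1 and 5.46 without saline replicate 2. Gdf15 lost this call when AP replicate 1 (adjusted p = 0.056), AP replicate 2 (0.053), polyI:C+AP replicate 1 (0.115) or polyI:C+AP replicate 2 (0.073) was left out, and Pmaip1 without polyI:C+AP replicate 2 (adjusted p = 0.051). Set as a share of the rise in mean TPM from saline to AP, the rise that stood with polyI:C was 144% for Ccng1, 117% for Mdm2, 102% for Cdkn1a and Phlda3, 67.5% for Sesn2, 75.1% for Bbc3 and 89.6% to 95.0% for the 4 others.

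Trp53 itself rose in AP. It measured 5.55 and 3.07 TPM in saline samples, 22.4 and 17.3 TPM in AP samples and 16.2 and 19.0 TPM in polyI:C-pretreated AP samples. The log2 fold change was 2.12 (SE 0.28, adjusted p = 0.0015) in AP against saline and 1.96 (SE 0.28, adjusted p = 0.0023) with polyI:C against saline. Between both AP groups it was -0.16 (adjusted p = 0.86). Mdm4, whose protein binds p53 beside Mdm2 and holds down its activity, was at 32.4 and 31.2 TPM in saline, 45.1 and 42.2 TPM in AP, and 39.2 and 39.2 TPM in pretreated samples. Its log2 fold change from saline to AP was 0.45 (adjusted p = 0.0070), short of 2-fold and the same as the median gene, and 0.02 after median-of-ratios scaling.

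Of 15 tested genes of the list holding p53 and its regulators, 3 were higher and none was lower in AP. Over all tested genes 18.2% were called higher and 4.03% lower, so that the list lay near the share of all genes. Its median log2 fold change was 0.43, beside 0.45 over all tested genes. The genes called higher besides Trp53 were Chek2, a kinase that phosphorylates p53 after DNA breaks, and Kat5, an acetyltransferase of the same response. Chek2 measured 1.71 and 0.601 TPM in saline and 10.3 and 10.9 TPM in AP samples, a log2 fold change of 2.83 (SE 0.36, adjusted p = 0.0012). Its saline values were worth about 7.5 and 2.1 reads. Kat5 (1.20, adjusted p = 0.00048), which falls outside the rule for named genes, was no longer called after median-of-ratios scaling. With polyI:C, 0 of the 15 were called against AP (3 at an unadjusted p under 0.05, median 0.06). Against saline 3 were higher with polyI:C (2 after median-of-ratios scaling), beside 16.9% of all tested genes. These were Trp53, Chek2 and Chek1, the last outside the rule for named genes, while Kat5 was not called.

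Beyond the 10 genes, 39 further p53 targets were tested, and about as many were called higher in AP as were not. The count was 19 higher and 1 lower, with a median log2 fold change of 1.20 beside 0.45 over all tested genes. After median-of-ratios scaling it was 14 higher and 3 lower, with a median of 0.68 beside 0.05. The largest rises were those of Eda2r, Gadd45a and Sfn. Eda2r, a member of the TNF receptor superfamily, went from 1.55 and 2.80 TPM in saline to 72.2 and 49.1 TPM in AP (log2 fold change 4.53, SE 0.26, adjusted p = 8.7e-05). Gadd45a, a growth arrest and DNA damage gene, went from 1.14 and 0.351 TPM to 18.1 and 23.4 TPM (4.16, SE 0.36, adjusted p = 0.00032). The saline values of Gadd45a were worth about 2.9 and 0.7 reads, near the floor. Sfn, which encodes the epithelial protein 14-3-3 sigma that holds back entry into mitosis, went from 5.94 and 4.70 TPM to 73.7 and 114 TPM (3.99, SE 0.22, adjusted p = 8.2e-05). Between pretreated and untreated AP samples their log2 differences were -0.07, -0.41 and 0.04, and none was called.

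**Figure D3:**
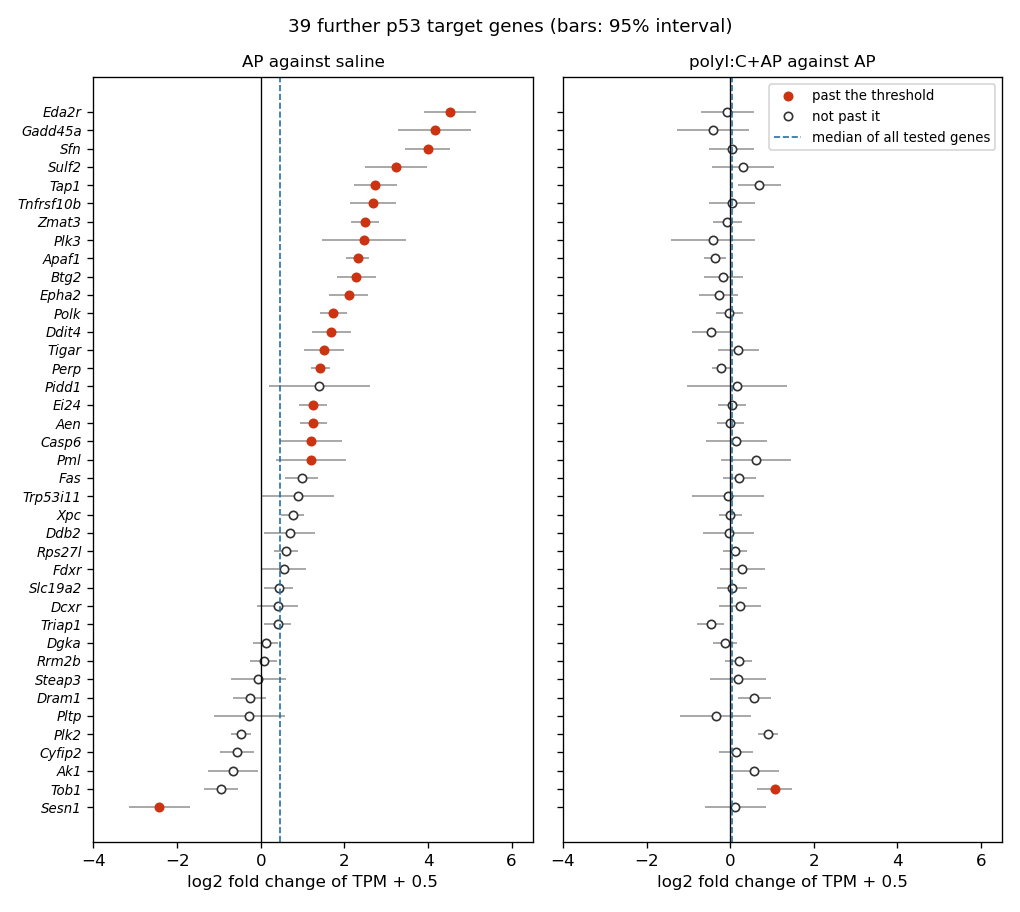
Log2 fold changes of TPM + 0.5 (horizontal axis) of the 39 further p53 target genes, ordered by the left panel, in AP against saline (left) and polyI:C+AP against AP (right); points are estimates, bars 95% intervals, filled points passed the test and the dashed line is the median of all tested genes. On the left 19 genes are filled to the right of 0 and Sesn1 to its left, and on the right Tob1 alone is filled.

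Sesn1, the paralog of Sesn2, was the 1 further p53 target called lower in AP on the TPM scale. Tob1 (log2 fold change -0.95, and -1.38 after median-of-ratios scaling) and Ak1 (-0.67 and -1.09), which fall outside the rule for named genes in this comparison, were called lower after that scaling too. Sesn1 fell from 291 and 392 TPM in saline samples to 62.1 and 63.1 TPM in AP samples, a log2 fold change of -2.42 (SE 0.30, adjusted p = 0.0012), whereas Sesn2 rose by 2.03. After polyI:C Sesn1 was at 95.9 and 48.6 TPM, on either side of the AP samples, and stayed below saline (-2.30, adjusted p = 0.0016). The remaining sestrin, Sesn3, measured 11.2 and 7.80 TPM in saline and 18.2 and 18.5 TPM in AP samples, a log2 fold change of 0.93 that did not reach 2-fold. In saline tissue Sesn1 was thus the sestrin with the highest TPM, and in AP tissue Sesn2 was.

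Tob1 was the only further p53 target called between pretreated and untreated AP. Tob1, an antiproliferative protein that recruits deadenylases to mRNA, was at 176 and 157 TPM in AP samples and 381 and 318 TPM in pretreated samples, beside 377 and 274 TPM in saline. The log2 fold change with polyI:C was 1.06 (SE 0.17, adjusted p = 0.049), and it lost the call under 11 of 17 alternatives, its adjusted p reaching 0.45 without AP replicate 2. Plk2, a polo-like kinase that falls outside the rule for named genes, had the next largest difference at 0.91 (adjusted p = 0.019), short of 2-fold, with 155 and 155 TPM in AP and 310 and 272 TPM in pretreated samples. Against saline, 21 of the 39 were higher and 1, Sesn1, was lower with polyI:C (14 and 1 after median-of-ratios scaling). Eda2r (4.46), Sfn (4.03) and Gadd45a (3.75) again led by log2 fold change.

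Among the 13 tested genes of the Bcl2 family other than the members, 5 were higher in AP and none was lower, with a median log2 fold change of 0.75 (3 higher and 2 lower after median-of-ratios scaling). Of the genes called higher, Bid, a BH3-only protein cleaved by caspase 8, went from 1.88 and 1.39 TPM to 13.0 and 12.1 TPM (log2 fold change 2.62, SE 0.22, adjusted p = 0.00029). Bcl2l1, which encodes the survival protein BCL-XL, went from 19.2 and 13.5 TPM to 50.4 and 45.6 TPM (1.54, SE 0.22, adjusted p = 0.0019). The 2 lower after that scaling were the survival genes Bcl2 and Bcl2l2, which fall outside the rule for named genes. Bcl2 measured 10.9 and 9.74 TPM in saline and 5.69 and 6.71 TPM in AP samples (log2 fold change -0.69, short of 2-fold, and -1.10 after scaling), and Bcl2l2 measured 57.7 and 58.5 TPM and 31.6 and 30.8 TPM (-0.89 and -1.31). Without AP replicate 2 the count higher in AP was 3. With polyI:C, 0 of the 13 were called against AP (4 at an unadjusted p under 0.05) and 7 were higher against saline (3 higher and 1 lower after median-of-ratios scaling, 4 higher without polyI:C+AP replicate 2).

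In the list of 10 other CDK inhibitors and paralogs of the members, 2 were higher in AP (1 higher and 1 lower after median-of-ratios scaling, 0 higher on leaving out either AP sample). Cdkn2b, which encodes the inhibitor p15, went from 3.44 and 1.21 TPM to 15.8 and 16.5 TPM, a log2 fold change of 2.68 (SE 0.70, adjusted p = 0.022) that was lost on leaving out either saline or either AP sample, with an adjusted p of up to 0.17. After polyI:C it was at 5.48 and 23.7 TPM, and none of the 10 was called against AP or had an unadjusted p under 0.05. Against saline 1 of the 10, Cdkn2b (2.21, adjusted p = 0.045), was higher in pretreated samples, and 0 were higher and 1 lower after median-of-ratios scaling. That Cdkn2b call was lost under most alternatives, and without polyI:C+AP replicate 2 the log2 fold change was 1.20 (adjusted p = 0.27).

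Of 16 tested cell cycle genes that p21 is known to lower, 4 were higher in AP (2 after median-of-ratios scaling) and 0 lower. Over all tested genes 18.2% were called higher and 4.03% lower, so that 0 lower among 16 says little. The median log2 fold change was 0.86, beside 0.45 over all tested genes. Some of the list were near the floor in saline, Cdk1 at about 1.8 and 2.7 reads, where a fall could hardly be called. Mcm5, a subunit of the replicative helicase, went from 3.23 and 1.98 TPM to 23.2 and 27.7 TPM (log2 fold change 3.09, SE 0.25, adjusted p = 0.00027). Pcna, the sliding clamp of replication and itself a p53 target, went from 42.8 and 41.7 TPM to 103 and 105 TPM (1.29, SE 0.10, adjusted p = 0.00024), a change under 2-fold after median-of-ratios scaling. None was called between pretreated and untreated AP (3 lower at an unadjusted p under 0.05, median -0.13), and 2 were higher with polyI:C against saline, 7 without polyI:C+AP replicate 1 and 1 without saline replicate 1, either AP sample or polyI:C+AP replicate 2. In AP against saline the count was 2 without AP replicate 2. The pretreated samples disagreed here, the proliferation gene Mki67, chosen after its values were seen, being at 1.84 TPM in replicate 1 and 14.2 TPM in replicate 2, while the 10 p53 target genes had a median replicate difference of 0.26 (log2) in this group against 0.21 over all genes.

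As Sesn2 and Gdf15 also belong to the integrated stress response, the 16 tested genes of that list were counted beside the p53 targets. In AP 6 were higher, Sesn2 and Gdf15 among them, and 2 were lower, with a median log2 fold change of 0.50. Atf3, a stress-induced transcription factor, went from 2.05 and 6.31 TPM to 118 and 106 TPM (log2 fold change 4.75, SE 0.42, adjusted p = 0.00034). With polyI:C none of the 16 was called against AP. At an unadjusted p under 0.05, 7 were lower, Sesn2 among them, and 0 higher, where 13.9% of all tested genes had such a p in either direction. The median log2 difference was -0.37, beside 0.04 over all tested genes and -0.07 over the 10 p53 target genes. Both lists hold Sesn2 and Gdf15, and they were not tested against each other. Between both AP groups the log2 difference was -0.41 for Sesn2 and -0.10 for Gdf15, the latter with the wide interval given above. Against saline 5 were higher and 2 lower with polyI:C (4 higher and 5 lower after median-of-ratios scaling), Gdf15 (4.07) and Atf3 (3.83) leading.

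Interferon-stimulated genes, which polyI:C is known to induce, are given as a check on the labels. Of 17 tested, 14 were higher in AP than in saline (10 after median-of-ratios scaling), with Rsad2 (4.39) and Oas1a (2.84) leading, 8 were higher in pretreated than in untreated AP, and 17 were higher in pretreated AP than in saline. Irf7, the interferon regulatory factor, was at 0.604 and 0.878 TPM in saline, 3.15 and 6.14 TPM in AP and 79.0 and 79.2 TPM in pretreated samples (log2 fold change 4.02 between both AP groups, SE 0.28, adjusted p = 0.0037). Ifit1 had a log2 fold change of 3.23 in that comparison (adjusted p = 0.031). The Irf7 call was lost on leaving out any AP or polyI:C+AP sample (adjusted p up to 0.13), and the Ifit1 call on leaving out any of the 6 samples (up to 0.33). Irf7 (6.01) and Oas1a (5.50) had the largest changes with polyI:C against saline.

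Marker RNA of several cell types differed between saline and AP along with the p53 target genes and is given beside them. The summed TPM of the 10 p53 target genes was 353 and 411 in saline, 2018 and 1888 in AP and 2268 and 1932 in pretreated samples. Duct markers followed a similar course, from 2481 and 2786 in saline to 34043 and 36403 in AP and 32314 and 25336 in pretreated samples. Of 12 tested duct markers 8 were higher in AP, led by Cldn4 (7.22) and Krt19 (4.17), 0 were called between both AP groups (3 at an unadjusted p under 0.05), and 8 were higher with polyI:C against saline, led by Cldn4 (7.07) and Krt8 (3.85). The summed TPM of acinar markers, 10 of them in the tables, went the other way, from 152920 and 142450 to 60004 and 44946, and to 44822 and 44102 with polyI:C. Sycn, Spink1 and Cuzd1 made up most of that sum, at 98753, 38301 and 12187 TPM in saline replicate 1. Of the 10 acinar markers, 6 were lower in AP (8 after median-of-ratios scaling), led by Amy2a5 (-3.65) and Bhlha15 (-2.83), and 5 were lower with polyI:C against saline, led by Pla2g1b (-3.07) and Sycn (-2.87). None was called higher against saline, but with polyI:C 2 were higher and 6 lower at an unadjusted p under 0.05. Ptf1a and Nr5a2, which fall outside the rule for named genes, did not fall. Ptf1a averaged 42.6 TPM in saline, 49.3 in AP and 82.8 in pretreated samples, and Nr5a2 averaged 94.7, 106 and 155 TPM.

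Most macrophage and monocyte markers rose in AP, and 6 of the 14 tested were called lower with polyI:C against AP. Of these 6, Csf1r and Cx3cr1 were not among the markers called higher in AP. Their sum was 772 and 498 TPM in saline, 2866 and 3312 in AP and 835 and 691 in pretreated samples. Of 14 tested, 11 were higher in AP, with Cd14 (3.85) and Fcgr1 (3.79) leading, and those lower with polyI:C against AP were led by Ccr2 (-3.82) and Lyz2 (-3.68), whose calls were both lost on leaving out AP replicate 1, AP replicate 2 or polyI:C+AP replicate 2 (adjusted p up to 0.13 and 0.16), that of Ccr2 also without polyI:C+AP replicate 1. Against saline 4 were higher and 3 lower with polyI:C (3 and 4 after median-of-ratios scaling), Cd14 (3.80) and Cd68 (1.78) leading. The summed p53 target genes were at 2268 and 1932 TPM in the same pretreated samples. Acinar markers were partly higher with polyI:C, 3 of 10 being called against AP, Bhlha15 (1.73) and Amy2a5 (1.48) leading, both calls being lost on leaving out any AP or polyI:C+AP sample (adjusted p up to 0.13 and 0.28). Sycn, the largest part of the acinar sum in saline, was at 31898 and 21348 TPM in AP and 14466 and 11044 TPM in pretreated samples.

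**Figure D4:**
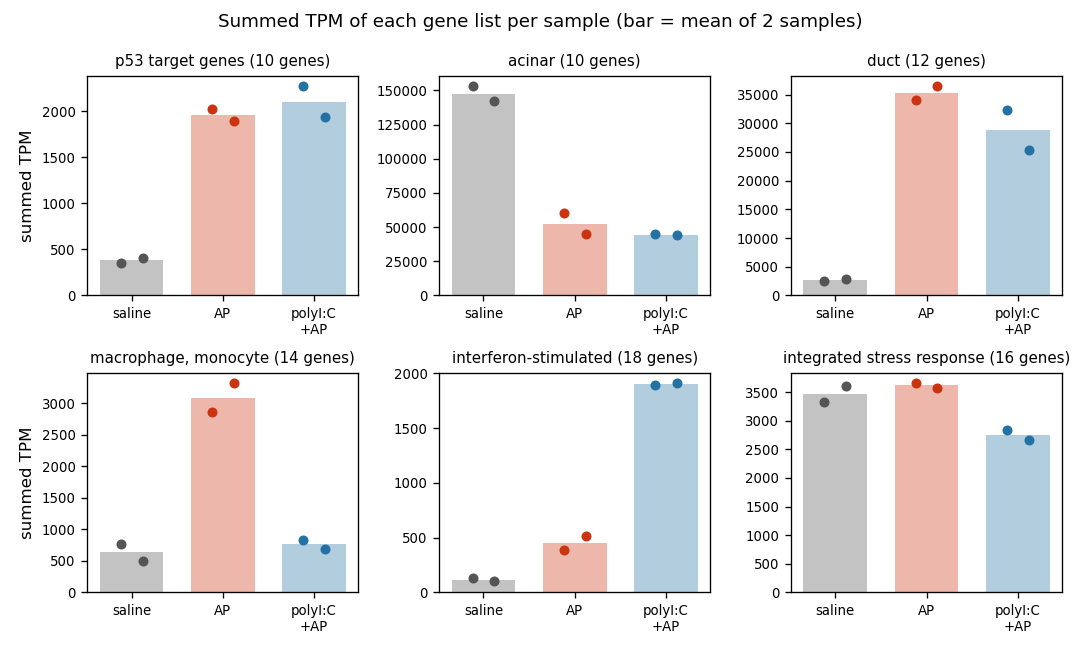
Summed TPM (vertical axis, linear, from 0) of the 10 p53 target genes and of 5 other lists in each sample, 1 panel per list; points are samples and bars are means of 2 samples. Panels show the p53 target genes, acinar, duct and macrophage markers, interferon-stimulated genes and the integrated stress response. The p53 target genes and the duct markers are low in saline and high in both AP groups, the acinar markers are highest in saline, the macrophage markers are highest in AP and the interferon-stimulated genes in polyI:C+AP.

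The remaining lists mark neutrophils, lymphocytes, fibroblasts, endothelium and islets. Neutrophil markers summed to 16.9 and 5.15 TPM in saline, 71.2 and 63.1 in AP and 45.2 and 22.5 in pretreated samples, and of 6 tested 3 were higher in AP (1 after median-of-ratios scaling), with Retnlg (3.41) and S100a9 (2.52) leading. The S100a9 call was lost under 9 alternatives, its log2 fold change being 1.47 (adjusted p = 0.13) without saline replicate 2, and the Retnlg call without saline replicate 1, AP replicate 1 or AP replicate 2 (adjusted p up to 0.10). With polyI:C, 0 were called against AP or saline (2 and 1 at an unadjusted p under 0.05). Of 9 neutrophil markers 3 and 6 were listed at 0 in the saline samples. Lymphocyte markers lay between 5.51 and 27.0 TPM in all samples, with 0 of 3 called, or at an unadjusted p under 0.05, in any comparison. Fibroblast and stellate markers summed to between 640 and 1032 TPM, with 4 of 9 higher in AP (3 higher and 1 lower after median-of-ratios scaling) and 3 with polyI:C against saline (1 higher and 1 lower), Col3a1 (2.74 and 1.94) and Col1a1 (1.95 and 1.55) leading in both (Col1a1 lost both calls, and Col3a1 that with polyI:C, on leaving out samples), and 0 called between both AP groups (1 at an unadjusted p under 0.05). Endothelial markers lay between 62.1 and 113 TPM with 0 of 7 called, or at an unadjusted p under 0.05, in any comparison. Islet markers lay between 1310 and 2341 TPM, and 1 of 8, Ins2 (-1.22), was called, lower with polyI:C against saline (3 lower after median-of-ratios scaling). The Ins2 call was lost with no filter (adjusted p = 0.054), with a prior on the mean log2 value (0.052), with only those groups fitted (0.078) and on leaving out any sample but polyI:C+AP replicate 2 (up to 0.16). In AP against saline and between both AP groups, 0 islet markers were called and 1 and 3 had an unadjusted p under 0.05. The part of these cell types in the rise of the p53 target genes was not tested.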

How the data were processed

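RNA was measured by sequencing in 6 pancreas samples, 2 each of saline, AP and polyI:C+AP, grouped by their titles. Per the labels and the methods of the study, the authors' processing used Trimmomatic for trimming, STAR for mapping (mm10) and HTSeq for read counts per gene, with DESeq2 for their own tests. The authors deposited TPM per Ensembl gene. The step from counts to TPM, its gene lengths and the strand setting were not given in the sources used here, and the labels name both an rRNA depletion kit and a stranded mRNA kit. TPM keeps no depth, so the depth given is an estimate: with GENCODE M21 exon lengths, 50.7% to 62.0% of low values (up to 20 reads) lay within 0.1 of a whole read, against 19.0% to 20.4% with lengths shuffled. The precision of low genes follows from it, counting error only.

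Of 22556 identifiers, 22490 were found in GENCODE M21 (GRCm38), the source of symbols and coordinates. log2(TPM + 0.5) was taken for 16814 genes (mean over samples of 1 TPM or more) and fitted with limma 3.58.1 (R 4.3.3), 1 coefficient per group over all 6 samples, with a prior variance following log2(mean TPM × exon length + 1) and Benjamini-Hochberg adjustment over all tested genes. Calls needed an adjusted p of at most 0.05 and at least 2-fold. With 2 against 2 samples an exact permutation test cannot go below p = 0.333 and was not used. In simulated reads for AP against saline (16751 genes), the fit recovered 167 of 200 genes changed 4-fold, with 11 false calls. The simulation assumed a dispersion of 0.05, raised as many genes as it lowered, left out genes of low level and kept all others unchanged. These data had far more changes, mostly rises, so its recovery and false calls do not carry over to them. The 10 genes, the lists and the settings were chosen with earlier results of these data known. The named genes are the 10 members, Trp53, Mdm4, the 3 largest called rises and falls of the further p53 targets (mean of at least 5 TPM, groups not overlapping) and the 2 largest called changes of each other list (mean of at least 5 TPM). Lists covered p53 regulators, further p53 targets, the Bcl2 family, CDK inhibitors and paralogs, cell cycle genes, the integrated stress response, interferon-stimulated genes, and acinar, duct, macrophage, neutrophil, lymphocyte, endothelial, fibroblast and islet markers. Many digestive enzyme genes, Cdkn2a and Ptprv were not analysed here. Alternatives covered the pseudocount, the filter, the scaling, the prior, the groups fitted, the threshold, the replicate block and leaving out each sample.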

Additional observations from a re-analysis of the deposited data

How the results depend on the processing

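Under 17 alternatives, the 10 p53 target genes gave 169 values per comparison, of which 165 (AP against saline), 156 (polyI:C+AP against AP) and 164 (polyI:C+AP against saline) kept their direction and side of the threshold. The 4 and 5 lost calls against saline were those of Gdf15 and Pmaip1 given above, on leaving out a sample. Pmaip1 did not pass a filter at 5 TPM. The count called higher against saline was 8 to 10 when each sample was left out, and 0 between both AP groups.

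With median-of-ratios scaling, 1565 genes were higher and 1225 lower in AP against saline, with a median of 1.93 over the 10 genes, and 1326 and 985 in polyI:C+AP against saline, with a median of 2.03. Scaling to genes under 1% of every library gave 1848 higher genes and a median of 2.24 there, and a filter at 5 TPM a median of 2.26. With the adjusted p alone the counts were 5552 higher and 1242 lower, 120 higher for polyI:C+AP against AP, and 5617 and 975. Between both AP groups, no filter gave 44 higher genes, a prior on the mean log2 value 14 and 14, and a robust prior 103 lower. Leaving out each sample gave 1953 to 3072 higher and 446 to 630 lower genes (median of the 10 genes 2.22 to 2.56) in AP against saline, 0 to 48 and 0 to 46 (median -0.21 to 0.09) between both AP groups, and 2166 to 2893 and 342 to 451 (median 2.33 to 2.61) in polyI:C+AP against saline. Each such fit has a group of 1 sample, which is assumed to vary like the other groups.

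Values that changed sign were all without a call. Between both AP groups, Cdkn1a went to -0.021 and Phlda3 to -0.0036 with median-of-ratios scaling, and to -0.032 and -0.014 with scaling to genes under 1%. Leaving out a sample moved Cdkn1a from -0.26 to 0.27, Phlda3 from -0.080 to 0.12, Bax from -0.32 to 0.23, Pmaip1 from -0.77 to 0.31, Trp53inp1 from -0.27 to 0.052, Gdf15 from -0.36 to 0.15 and Trp53 from -0.35 to 0.020. Mdm4 against saline went to -0.15 with polyI:C under median-of-ratios scaling. The cause was not tested.

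Samples share only a replicate number: the deviations of same-numbered samples correlated at -0.0039 to 0.035 across genes. With the replicate block, 10, 0 and 10 of the p53 target genes were called higher in the 3 comparisons, and over all genes 2987 higher and 659 lower, 62 and 62, and 2799 and 488.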
